A study of Mus musculus with 12 samples.

Results

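Atrx (ENSMUSG00000031229) lies on the minus strand of mouse chromosome X, chrX:105797615-105929403 on GRCm38.p6, a span of 131.8 kb. The deposited tables list 27 transcripts under its symbol, of 137862 transcripts in all, and each of the 27 was taken, whatever its level. All 27 match the GENCODE M21 annotation in start, end, number of exons and length. That annotation types 14 of them as protein coding, 8 as retained intron, 3 as nonsense-mediated decay and 2 as processed transcripts.

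The libraries hold total RNA, depleted of ribosomal RNA, from the hippocampus of 3-month-old mice. The 4 groups were Atrx-cKO females, control females, Atrx-cKO males and control males, with 3 libraries each. Per the series title, Atrx was deleted in neurons. The Cre driver, the deleted exon, the strain and what alleles the controls carry are not given in the sources used here, and those do not say of each library that it is 1 mouse, so p-values measure the spread between these libraries, which may be partly technical.

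ATRX is a chromatin remodeller encoded on the X chromosome. Its ADD domain, near the amino terminus, binds histone H3 tails at heterochromatin, and its helicase domain, near the carboxy terminus, uses ATP. With the histone chaperone DAXX it places the histone variant H3.3 at telomeres and other repeats. Mutations of the human gene cause ATR-X syndrome, in which intellectual disability is a main feature. A conditional knockout in neurons leaves the gene intact in glia and vessels, whose RNA is also part of a hippocampal library. In such bulk RNA, fewer cells of a type and less RNA per cell cannot be told apart.

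Of the 27 transcripts, 1 covers the whole gene. ENSMUST00000113573 has 35 exons and 10275 bases, and its exons are numbered here from its 5′ end. The other 26 are short, none spanning more than 54.24 kb: 16 have their midpoint on the 5′ side of the middle of the gene and 10 on its 3′ side. Exons 3 to 5 are each overlapped by 12 or 13 of the 27 transcripts, and exons 22 to 25 by 2. The published conditional allele of Atrx removes an exon numbered 18. Whether these mice carry that allele, and whether its numbering is that of this annotation, is not stated in those sources. Annotated exon 18 is 147 bases long, a multiple of 3, as are 10 of the 35 exons. It is shown here because the tables cannot report its loss: no annotated transcript joins exon 17 to exon 19 without it. On the minus strand of GRCm38.p6, at chrX:105845795-105845941, it reads as follows, with exon 18 in capitals and 20 bases of exons 17 and 19 of the transcript in lower case, from GENCODE M21.
Exon 18 with flanks: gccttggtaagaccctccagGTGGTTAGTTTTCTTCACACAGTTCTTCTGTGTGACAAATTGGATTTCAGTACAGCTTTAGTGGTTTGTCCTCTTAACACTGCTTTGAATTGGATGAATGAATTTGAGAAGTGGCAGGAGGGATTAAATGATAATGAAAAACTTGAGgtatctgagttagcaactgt

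A second stretch separates the full-length transcript from ENSMUST00000200471, a protein-coding transcript of 2 exons at chrX:105865546-105875305. That transcript begins inside exon 9 and reads on past exon 10 for 2305 bases of the following intron. In the full-length transcript, exon 10 (73 bases) is spliced to exon 11. In ENSMUST00000200471 the reading frame goes on into the intron for 184 bases and ends in a TAA stop codon at chrX:105867667. The lines below share the last 30 bases of exon 10 in lower case. Capitals mark the first 60 bases of exon 11 in the first line, and the 184 intron bases up to and including the stop in the second.
Exon 10 to exon 11: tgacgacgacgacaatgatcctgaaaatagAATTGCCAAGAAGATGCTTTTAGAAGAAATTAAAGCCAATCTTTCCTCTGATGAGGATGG
Exon 10 read on: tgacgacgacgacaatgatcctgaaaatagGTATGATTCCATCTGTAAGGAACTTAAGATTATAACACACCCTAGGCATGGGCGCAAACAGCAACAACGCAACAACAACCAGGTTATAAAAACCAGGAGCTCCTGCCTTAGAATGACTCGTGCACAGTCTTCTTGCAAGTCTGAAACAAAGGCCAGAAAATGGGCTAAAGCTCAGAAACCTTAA

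FPKM in these tables is StringTie's estimate for each transcript: fragments relative to its length and to all fragments mapped. It is a constant multiple of the deposited coverage within a table, so the estimate is uniform along a transcript, and no table gives depth base by base. Mapped sequence was 1.16 to 4.26 Gb in cKO females, 3.60 to 7.90 Gb in control females, 3.66 to 8.64 Gb in cKO males and 7.12 to 8.19 Gb in control males. As a measure of background, the median depth over 1979 olfactory and vomeronasal receptor genes, which brain tissue hardly uses, was taken on the FPKM scale. It was 0.326, 2.03 and 2.30 in cKO females 1 to 3, against 0.0888 to 0.622 in control females. In males it was 0.0174 to 0.297 in cKO and 0.00461 to 0.0274 in control libraries. The shallowest libraries and the highest background thus fell in 1 group, the cKO females. Values were scaled over genes of at least 10 FPKM. On that scale the median of all 24705 genes tested was 0.63 higher in cKO than in control females, and 0.13 higher in cKO than in control males (log2). Excitatory neuron markers (6 genes) summed to 216 to 360 FPKM in cKO females and 317 to 371 in control females, and to 265 to 287 in cKO males and 274 to 284 in control males. Inhibitory neuron markers (5 genes) summed to 114 to 148 in cKO females and 165 to 202 in control females, and microglia markers (5 genes) to 32.6 to 41.6 in cKO females and 43.2 to 50.5 in control females, both without overlap. In males, astrocyte markers (5 genes) stood apart, at 343 to 422 in cKO and 440 to 483 in control libraries. Choroid plexus markers (3 genes) were the most uneven, with groups overlapping in both sexes. They summed to 31.4 to 37.1 in cKO females and 16.8 to 5746 in control females. In males they summed to 46.8 to 2508 in cKO and 1316 to 4018 in control libraries. No marker of these lists was at 0 in any library. The part of depth, background and cell makeup in the results below was not tested, apart from the values given with background subtracted.

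The full-length transcript was the Atrx transcript called lower in cKO hippocampus. It had 10.99, 7.76 and 8.46 FPKM in cKO females, against 23.2, 26.9 and 21.3 FPKM in control females. It had 12.9, 12.2 and 14.9 FPKM in cKO males, against 21.1, 19.98 and 21.3 FPKM in control males. Every cKO library was below every control library of its sex, and the lowest values were those of the cKO females. Group means were 9.07 ± 1.70 and 23.8 ± 2.87 FPKM in cKO and control females, and 13.3 ± 1.41 and 20.8 ± 0.688 FPKM in cKO and control males (SD, n = 3 each). The cKO mean was therefore 38.1% of control in females and 64.1% in males. With background subtracted, cKO females had 10.7, 5.73 and 6.16 FPKM and control females 23.0, 26.8 and 20.6, and the male values moved by less than 0.3 FPKM.

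In limma's fit over 70602 transcripts, with Benjamini-Hochberg adjustment, the full-length transcript fell by 1.16 in females on the log2 scale (SE 0.141, adjusted p = 0.00845). It was 1 of 61 transcripts called there in either direction (0.0864% of those tested; 0.0496% called lower). In males its log2 change was −0.63 (SE 0.141, unadjusted p = 0.000665), which did not pass over all transcripts (adjusted p = 1), where 9 transcripts were called (0.0127%). The mean of both sexes fell by 0.89 (SE 0.0994, adjusted p = 0.00571), among 25 transcripts called (0.0354%; 0.0269% called lower). The smaller change in males was not called as a difference: male minus female was 0.52 (SE 0.199, unadjusted p = 0.0215, adjusted p = 0.488), a contrast that called 0.0269% of transcripts. Without cKO female 1 it was 0.57 (adjusted p = 0.0364), in a fit that called this difference for 39.2% of transcripts. The exact two-sided permutation test gave p = 0.1 within each sex, the smallest that 3 against 3 libraries allow, and 0.005 over both sexes, also the smallest possible. The female call was lost without control female 1 (adjusted p = 0.0515) or control female 2 (adjusted p = 0.0647), without both cKO females of highest background (log2 −1.07, adjusted p = 0.0769), and with only the female libraries in the fit (adjusted p = 0.0575). It was also lost with scaling over all genes above 0, although the log2 change was then −2.01 (adjusted p = 0.128). The call on the mean of both sexes held without any 1 of the 12 libraries (adjusted p 0.00105 to 0.0295) and was lost under that scaling (adjusted p = 0.168). With the replicate number as a block both calls were lost (adjusted p = 0.0750 in females, 0.120 on the mean).

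**Figure D1:**
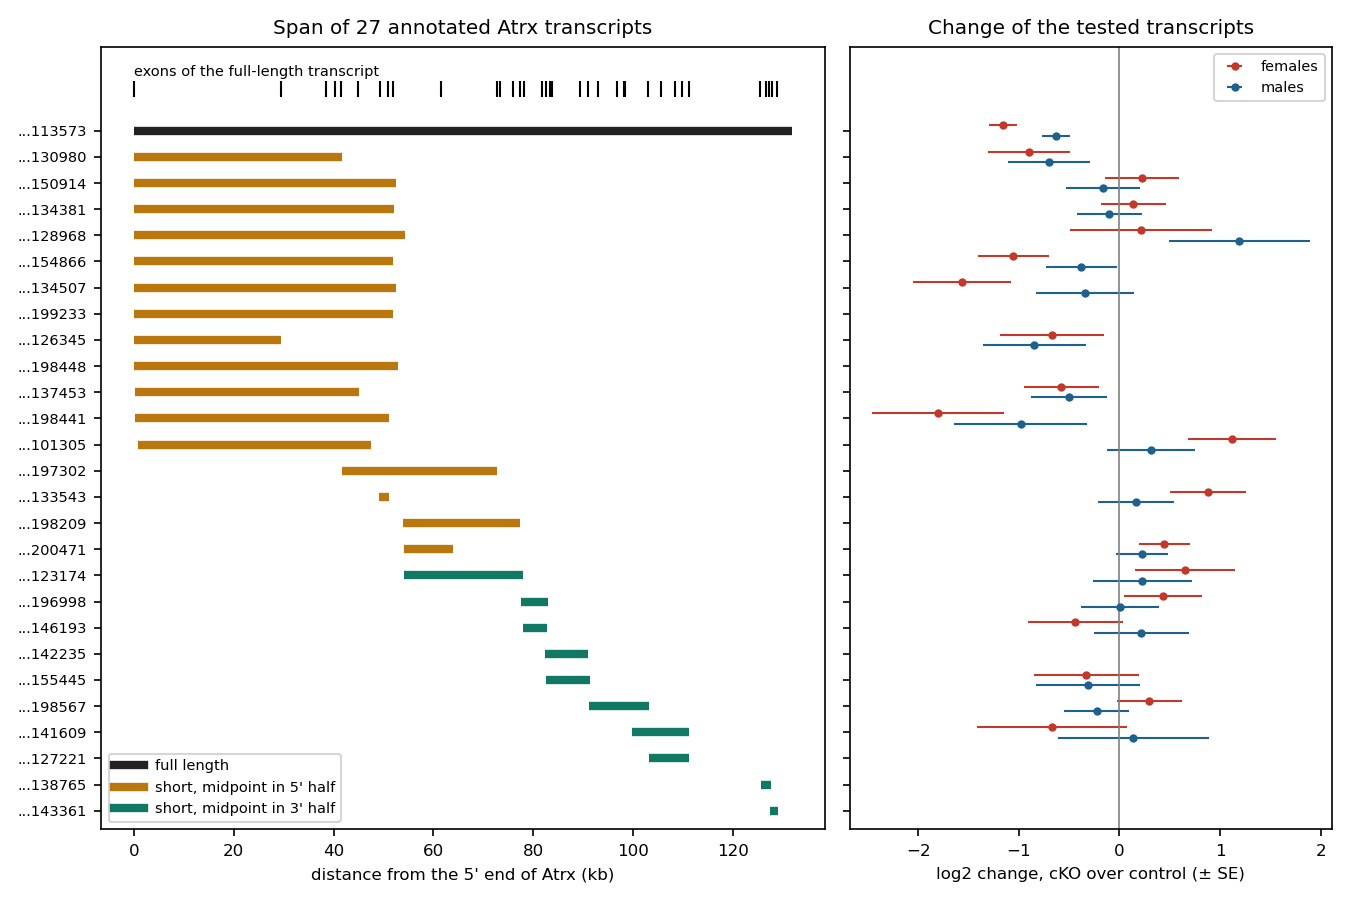
Left, span of each of the 27 Atrx transcripts as distance from the 5′ end of the gene in kb, named by the last 6 digits of their IDs, with exon starts of the full-length transcript as ticks above. Right, log2 change of cKO over control with its SE for the 19 tested transcripts, in females (red) and males (blue): the full-length transcript, at −1.16 and −0.63, has the shortest error bars, and short transcripts lie on both sides of 0.

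Summed over all 27 transcripts as deposited, Atrx was less reduced than its full-length form. The sum was 31.0, 36.1 and 38.2 FPKM in cKO females, against 55.6, 58.8 and 63.6 FPKM in control females. In males it was 34.2, 32.3 and 36.5 FPKM in cKO, against 46.9, 40.2 and 42.1 FPKM in control libraries. Groups stood apart in both sexes, as 0.498% of genes did in the lower direction, and the cKO means were 59.1% of control in females and 79.7% in males. With background subtracted from each transcript, cKO and control female means were 7.52 and 23.5 FPKM for the full-length form. They were 5.575 and 16.4 for the short 5′ transcripts, and 2.69 and 12.8 for the short 3′ ones. On that basis the sum was no less reduced than the full-length form in females. In males the same pairs of means were 13.2 and 20.8, 12.3 and 14.7, and 6.36 and 7.19 FPKM, and the sum was still less reduced. For the deposited sum, limma over 24705 genes gave log2 changes of −0.55 in females (SE 0.144, adjusted p = 0.0616) and −0.33 in males (SE 0.144, adjusted p = 0.999), so the gene sum was not called. Their mean was −0.44 (adjusted p = 0.120, exact permutation p = 0.005), and male minus female was 0.22 (adjusted p = 0.5). In the same fit 2 genes were called in females (0.0081%), 0 in males (458 at an unadjusted p under 0.05) and 3 on the mean of both sexes (0.0121%). The sum counts each transcript's FPKM equally, whatever its length. When the bases assigned to the gene were instead divided by the length of its joined exons, the log2 change was −0.81 in females (adjusted p = 0.0316, with 0.0321% of genes called) and −0.64 over both sexes (adjusted p = 0.0127, with 0.0366% called, limma). Without cKO female 1 the female log2 change of the sum was −0.37 (adjusted p = 0.00949), in a fit that called 70.1% of genes, and without control female 3 it was −0.48 (adjusted p = 0.0498), with 22.6% of genes called. Without cKO female 1 the mean of both sexes was −0.35 (adjusted p = 0.00208, 64.3% of genes called), and control males against control females −0.43 (adjusted p = 0.0183, 17.9% called). Control males were lower than control females by 0.43 on the log2 scale, which was not called (adjusted p = 0.114) and was 0.19 higher under scaling over all genes above 0.

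The share of the full-length form in the sum, as deposited, was also lower in cKO libraries on average. It was 35.5, 21.5 and 22.2% in cKO females, against 41.7, 45.8 and 33.4% in control females. It was 37.6, 37.8 and 40.8% in cKO males, against 45.0, 49.7 and 50.5% in control males. Male groups were apart, while in females cKO female 1 lay above control female 3. The difference over both sexes, as deposited, was −11.8 percentage points (exact permutation p = 0.01). With background subtracted from each transcript, the short 5′ and short 3′ sums averaged 0.726 and 0.345 of the full-length form in cKO females. In control females they averaged 0.691 and 0.566, so a lower share in cKO females was not seen. In males they averaged 0.917 and 0.487 in cKO, against 0.709 and 0.347 in control libraries. Each of these ratios overlapped between groups in both sexes.

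As a group, the 16 short transcripts of the 5′ side were, as deposited, nearer to control than the full-length form. With background subtracted from each of the 16, that difference was no longer called. Their sum was 12.9, 17.5 and 16.0 FPKM in cKO females, against 20.2, 21.6 and 19.0 FPKM in control females. It was 12.4, 12.3 and 16.2 FPKM in cKO males, against 17.7, 13.0 and 14.2 FPKM in control males. The male groups overlapped, and the female groups no longer stood apart once libraries were scaled; the scaled log2 change over both sexes was −0.16 (exact permutation p = 0.26), against −0.73 (p = 0.02) with scaling over all genes above 0 and −0.82 (p = 0.02) with background subtracted from each transcript. Set against the full-length form of the same library, the ratio averaged 1.77 ± 0.549 in cKO females and 0.855 ± 0.0481 in control females, and 1.02 ± 0.0600 in cKO males and 0.718 ± 0.105 in control males. As deposited, every cKO ratio lay above every control ratio of its sex, and the log2 ratio was higher in cKO by 0.73 over both sexes (exact permutation p = 0.005). In cKO male 3, however, 8.03 of the 16.2 FPKM of the short 5′ sum came from ENSMUST00000128968. That transcript had 0.397 and 0.360 FPKM in cKO males 1 and 2. The ratio without it was not tested. With background subtracted from each transcript the groups overlapped in both sexes. The ratios were then 0.810, 0.790 and 0.579 in cKO females against 0.759, 0.758 and 0.556 in control females, and 0.946, 0.736 and 1.07 in cKO males against 0.822, 0.643 and 0.663 in control males. The log2 ratio was higher in cKO by 0.22 on that basis and was not called (exact permutation p = 0.135). Of its alternatives 19 kept their direction and side of the threshold, and this 1 did not. Among the 19, 12 left out 1 library each, and background was subtracted there only once from a sum. The count of 19 is thus no test of the part of background. The alternative that did not keep its side subtracts background anew for each of the 16 transcripts, many of which share exons. The sum in cKO female 2 thereby fell from 17.5 to 4.53 FPKM, at a background of 2.03 FPKM.

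The 10 short transcripts of the 3′ side gave less even values. Their sum was 7.08, 10.9 and 13.7 FPKM in cKO females, against 12.3, 10.3 and 23.4 FPKM in control females. It was 8.91, 7.78 and 5.41 FPKM in cKO males, against 8.12, 7.24 and 6.66 FPKM in control males. Groups overlapped in both sexes, with a log2 change of −0.15 (exact permutation p = 0.58) that turned to 0.02 without cKO female 1 and to 0.03 without control female 3. It was −0.71 (p = 0.02) with scaling over all genes above 0 and −1.20 (p = 0.02, exact permutation) with background subtracted from each transcript. Their log2 ratio to the full-length form was higher in cKO by 0.74 (exact permutation p = 0.04), with overlapping groups. That call was lost when any 1 of 9 libraries was left out, those other than cKO female 1, control female 3 and cKO male 3 (exact permutation p 0.05 to 0.11). It was also lost without both cKO females of highest background (0.35, exact permutation p = 0.475), and turned to −0.17 with background subtracted from each transcript (exact permutation p = 0.77).

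Which exons lose signal can be followed only as an estimate, by adding up the coverage of every transcript that contains an exon. On this scale all 35 exons were lower in each cKO female than in each control female. In males 33 were, the exceptions being exons 8 and 9, where cKO male 3 overlapped the control males. The cKO mean was 35.98% of control at exon 29 and 51.3% at exon 6 in females, the lowest and highest exons, with a median of 42.1%. In males it was 64.2% at exon 35 and 76.4% at exon 8, with a median of 66.7%. No exon was as high in cKO as in control means. The full-length transcript enters all 35 exons, supplying 47.9% of the estimate at exon 3 and 99.9% at exon 35 in cKO females. The counts of lower exons thus largely repeat the fall of that transcript, and the estimate could not show any exon as absent.

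At exon 18 the estimated depth was 13.4, 9.90 and 14.4 in cKO females, against 29.9, 29.6 and 26.5 in control females (FPKM scale). It was 16.4, 15.5 and 16.0 in cKO males, against 24.4, 23.7 and 23.6 in control males. The cKO means, 43.8% and 66.7% of control in females and males, were near the medians over all exons. These values do not measure exon 18 on its own: the full-length transcript supplied 72.2% and 83.0% of them in cKO and control females, and 83.5% and 86.9% in cKO and control males.

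From 5′ to 3′ the estimated depth, as deposited, changed unevenly. Over the first 17 exons of the full-length transcript the cKO mean was 43.2% of control in females and 73.6% in males. Over its last 18 exons the cKO mean was 38.9% and 64.9%. The log2 ratio of the 3′ to the 5′ exons averaged −0.29 ± 0.074 in cKO females and −0.14 ± 0.047 in control females, and −0.30 ± 0.170 in cKO males and −0.14 ± 0.018 in control males. The cKO libraries were below the control libraries in both sexes. Among cKO males, cKO male 3 set much of this, at −0.49 against −0.21 and −0.19 in cKO males 1 and 2. Its mean depth over the first 17 exons was 21.7, against 15.7 and 14.7 (FPKM scale). The cKO effect was −0.15 over both sexes (exact permutation p = 0.005), and −0.11 to −0.18 without any 1 library. With background subtracted once from the estimated depth of each exon it was −0.18 (exact permutation p = 0.005), and the groups stood apart in both sexes. With background subtracted from each transcript before summing it was −0.06 and was not called (exact permutation p = 0.5).

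**Figure D2:**
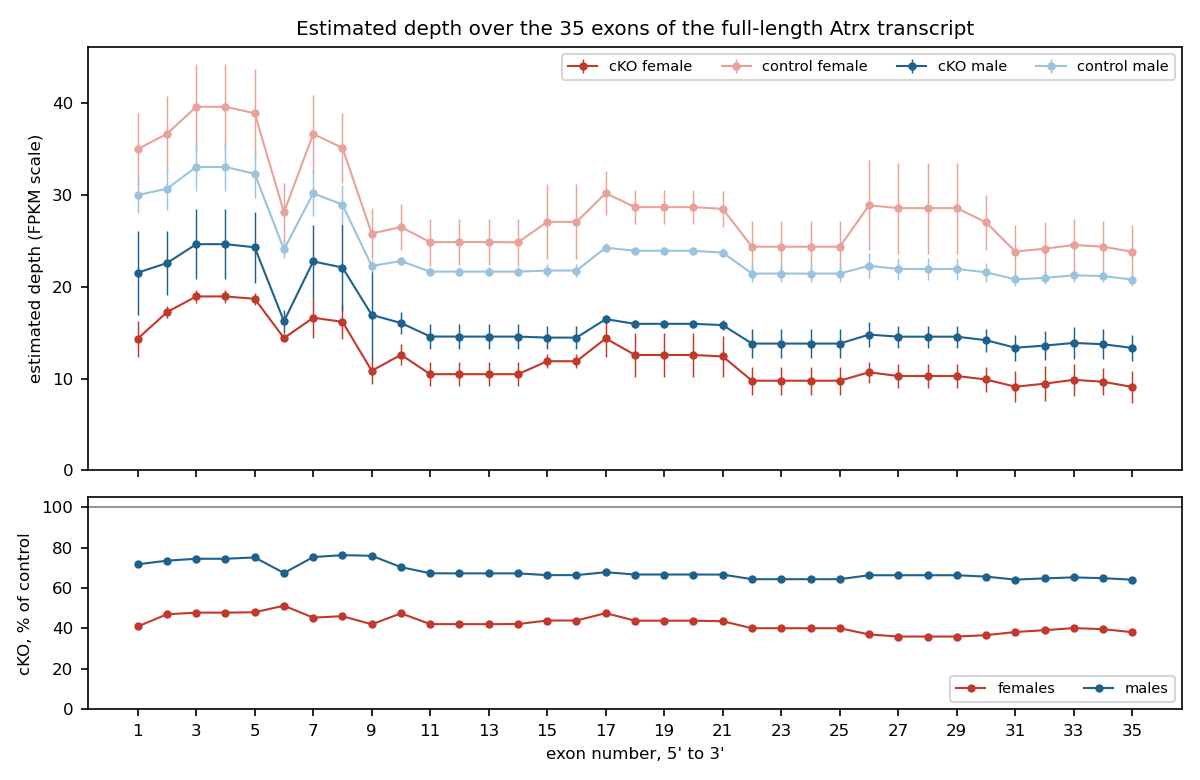
Upper panel, estimated depth on the FPKM scale over the 35 exons of the full-length Atrx transcript, as mean and SD of 3 libraries for each of the 4 groups. Lower panel, cKO mean as percent of the control mean: females run between 35.98 and 51.3%, males between 64.2 and 76.4%, and both are highest among the first 10 exons.

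Among short transcripts that share the 5′ end, several were lower in cKO. ENSMUST00000134507, of 9 exons between exons 1 and 9, had 0.715, 0 and 2.04 FPKM in cKO females, against 3.36, 3.42 and 2.88 FPKM in control females. It had 1.41, 1.21 and 1.44 FPKM in cKO males, against 2.22, 1.66 and 1.67 FPKM in control males. Both sexes stood apart, as for ENSMUST00000113573 and ENSMUST00000130980. limma gave −1.57 in females (SE 0.488, adjusted p = 0.0769) and −0.34 in males (adjusted p = 1). It was called in females with background subtracted (limma, log2 −2.44, adjusted p = 0.0123), in a fit that called 0.331% of transcripts. The subtracted values in cKO females were then 0.389, 0 and 0 FPKM, those at 0 being no higher than background. In control females they were 3.17, 3.33 and 2.25 FPKM. ENSMUST00000198441, of 7 exons reaching exon 8, had 2.62, 0.853 and 0.0895 FPKM in cKO females, against 3.46, 6.62 and 4.16 FPKM in control females. In males it had 3.50, 3.12 and 0.216 FPKM in cKO, against 5.26, 2.91 and 3.52 FPKM in control libraries. Females stood apart and males overlapped; limma gave −1.81 in females (SE 0.658, adjusted p = 0.0774). ENSMUST00000137453, of 5 exons, had 0.593, 1.43 and 0.304 FPKM in cKO females against 1.49, 2.11 and 0.914 FPKM in control females, and 0.684, 0.763 and 0.543 FPKM in cKO males against 1.24, 1.06 and 1.13 FPKM in control males. It stood apart in males only, and limma called neither sex (log2 −0.58 in females, −0.50 in males).

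Other transcripts were higher in cKO females, the libraries of high background. ENSMUST00000101305, which starts 0.826 kb inside the gene and lies 84.1% outside the exons of the full-length form, had 1.43, 5.25 and 4.67 FPKM in cKO females, against 1.65, 1.18 and 1.74 FPKM in control females. In males it had 1.13, 1.22 and 0.667 FPKM in cKO, against 0.942, 0.662 and 0.492 FPKM in control libraries. The values of cKO females 2 and 3 stood far above the others, and limma did not call the female change (log2 1.12, SE 0.438, adjusted p = 0.0825). ENSMUST00000133543, a retained intron at exons 7 and 8, had 1.71, 3.08 and 3.49 FPKM in cKO females against 1.59, 1.08 and 1.69 FPKM in control females, and 0.311 to 0.847 FPKM in cKO males against 0.150 to 0.564 FPKM in control males. The lowest cKO female was barely above the highest control female (1.705 and 1.686 FPKM), and males overlapped; limma gave 0.88 in females (adjusted p = 0.0979).

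On the 3′ side, ENSMUST00000196998 is a single unspliced block of 5431 bases around exons 15 to 17. It had 0.813, 2.35 and 2.75 FPKM in cKO females against 1.28, 1.26 and 1.75 FPKM in control females, and 0.703 to 0.950 FPKM in cKO males against 0.708 to 0.895 FPKM in control males. ENSMUST00000155445, a retained intron that includes exon 18, had 1.87, 1.97 and 5.55 FPKM in cKO females against 6.41, 2.30 and 4.77 FPKM in control females, and 0.744 to 3.32 FPKM in cKO males against 1.76 to 3.46 FPKM in control males. ENSMUST00000123174, a retained intron from exon 9 to 14, had 0.952, 1.95 and 1.29 FPKM in cKO females against 0.181, 0.860 and 1.88 FPKM in control females, and 0.597 to 2.37 FPKM in cKO males against 0.591 to 1.12 FPKM in control males. In each of these 3 transcripts the groups overlapped in both sexes, and limma called none.

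For a pair of transcripts a single library set the mean. ENSMUST00000141609 had 12.4 FPKM in control female 3 and 0.406 to 1.64 FPKM in the other 11 libraries. ENSMUST00000128968 had 8.03 FPKM in cKO male 3 and 0.272 to 0.784 FPKM in the other 11. Each shares most of its exons with other Atrx transcripts, and the estimate assigns shared reads among them. The value of cKO male 3 is also what lifts exons 8 and 9 in that library.

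Counted on deposited FPKM over all 27, 5 transcripts were lower in each cKO female than in each control female (4.38% of the 70602 tested transcripts were), and 2 were higher (14.4%). In males 5 were lower (2.15%) and 1 higher (7.66%). In both sexes 3 were lower (0.329%) and 1 was higher (1.34%). On scaled FPKM 4 were lower and 1 higher in females, and 2 lower in both sexes, since ENSMUST00000130980 and ENSMUST00000133543 no longer stood apart in females. Beyond those described, ENSMUST00000154866 was lower in females alone and ENSMUST00000126345 in males alone. Of the 27, 19 passed the filter of a mean of 0.5 FPKM. Besides the full-length form, limma called none of the other 18 in either sex, with 7 of the 19 at an unadjusted p under 0.05 in females and 1 in males. Over all 70602 transcripts tested, 30750 were at that p in females and 1201 in males. Among the 19 the median log2 change was −0.33 in females and −0.17 in males, against 0.76 and 0.17 over all transcripts tested. The 8 below the filter averaged 0.0109 to 0.483 FPKM, and none of them stood apart in either sex. The count called was 8 in females, and 8 on the mean of both sexes, without cKO female 1, when 42170 of 71030 transcripts were called in females. Of the 8 in females, 4 were lower (ENSMUST00000113573, ENSMUST00000134507, ENSMUST00000154866 and ENSMUST00000198441) and 4 higher (ENSMUST00000101305, ENSMUST00000133543, ENSMUST00000196998 and ENSMUST00000200471).

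**Figure D3:**
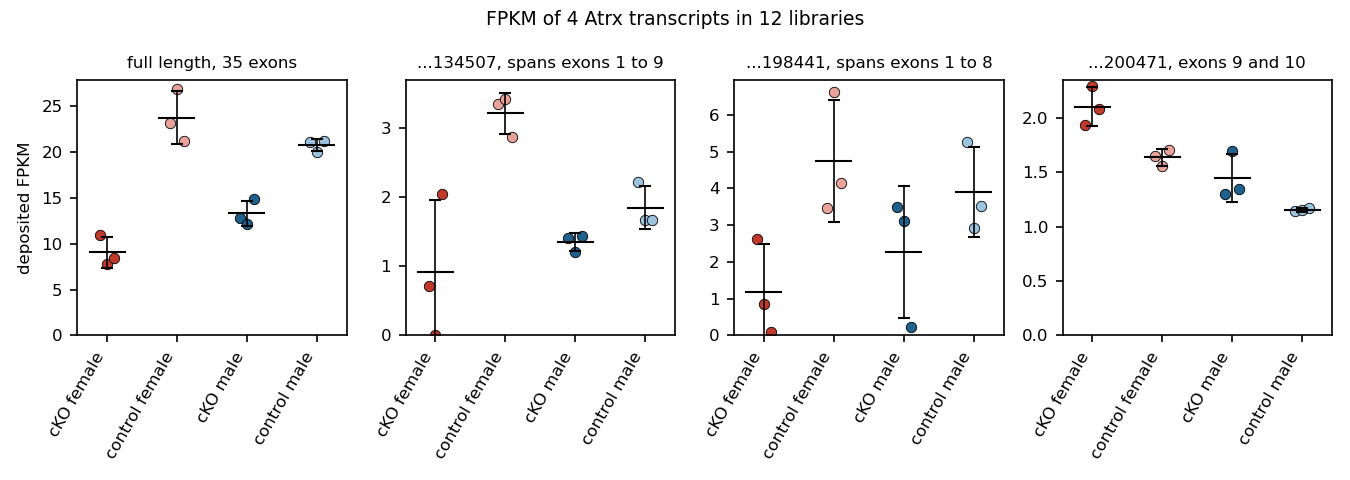
Deposited FPKM of 4 Atrx transcripts in the 12 libraries (points), with group mean and SD (lines, n = 3). The full-length transcript and ENSMUST00000134507 are lower in every cKO library than in the control libraries of the same sex, ENSMUST00000198441 is lower in females only, and ENSMUST00000200471 is higher, at 1.30 to 2.29 FPKM in cKO and 1.14 to 1.71 FPKM in control libraries.

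ENSMUST00000200471, the form that reads on past exon 10, was, as deposited, the transcript that was higher in cKO in both sexes. It had 1.93, 2.29 and 2.08 FPKM in cKO females, against 1.65, 1.55 and 1.71 FPKM in control females. It had 1.30, 1.70 and 1.34 FPKM in cKO males, against 1.14, 1.15 and 1.17 FPKM in control males. The groups did not overlap, but the steps were small, and limma called neither sex (log2 0.45, SE 0.257, adjusted p = 0.189 in females; 0.22, adjusted p = 1 in males). Of the 70602 transcripts tested, 1.34% were higher in both sexes in this way. Groups that stand apart in both sexes fix the exact permutation p for ENSMUST00000200471 at 0.005, so it adds nothing further. With background subtracted the direction turned in females, at 1.61, 0.257 and 0 FPKM in cKO females against 1.46, 1.46 and 1.08 FPKM in control females. Males still stood apart, and the difference over both sexes was −0.26 FPKM (exact permutation p = 0.4).

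Its share of the sum of both forms, a value chosen after the levels had been seen, moved further. The share was 14.9, 22.8 and 19.7% in cKO females, against 6.64, 5.46 and 7.43% in control females. It was 9.19, 12.2 and 8.26% in cKO males, against 5.13, 5.43 and 5.23% in control males. The groups stood apart in both sexes, which the higher and lower levels of its 2 parts already fixed, so no test is given. With background subtracted from both forms the female groups overlapped, at 13.1, 4.29 and 0% in cKO females against 5.97, 5.18 and 4.99% in control females. The male groups still stood apart, at 9.26 ± 1.19% in cKO and 5.21 ± 0.181% in control males (SD, n = 3 each). The background, 2.03 and 2.30 FPKM in cKO females 2 and 3, was as large as the transcript itself there.

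**Figure D4:**
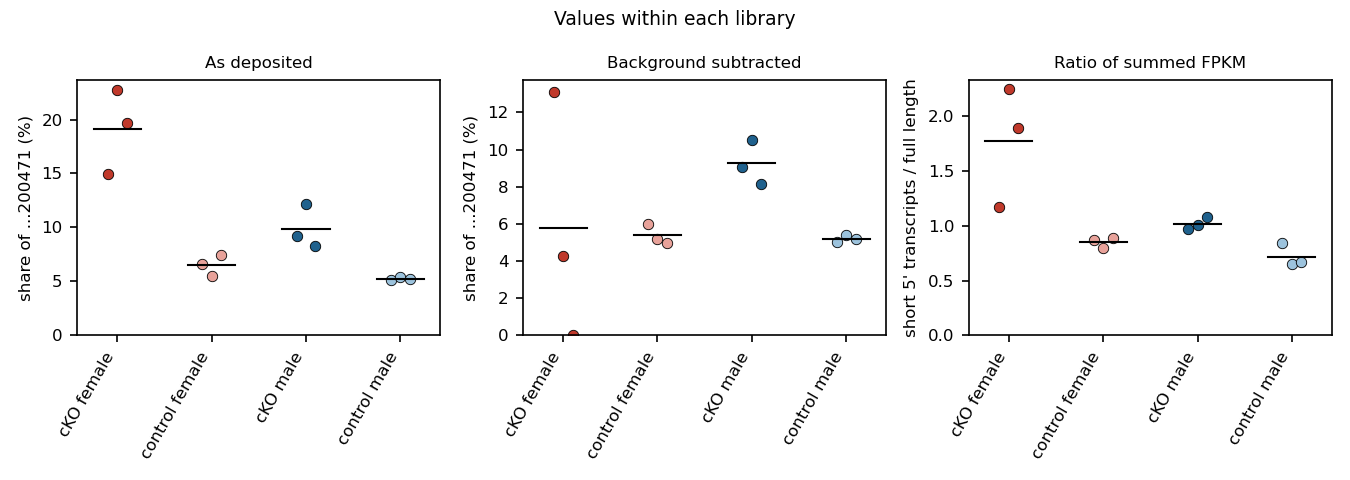
Values within each of the 12 libraries, with group means as lines: share of ENSMUST00000200471 in the sum of that form and the full-length form as deposited (left) and with background subtracted (middle), and ratio of the 16 short 5′ transcripts to the full-length form (right). The left and right panels, both without background subtraction, show cKO above control in both sexes. In the middle panel cKO females spread over 0 to 13.1% and overlap control females, while the male groups stay apart.

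Transcripts typed as retained intron overlapped between groups as deposited. The 8 summed to 7.55, 11.3 and 15.4 FPKM in cKO females, against 12.3, 10.01 and 12.0 FPKM in control females. In males they summed to 8.27, 6.28 and 4.05 FPKM in cKO, against 6.43, 6.86 and 4.57 FPKM in control libraries. Both sexes overlapped (exact permutation p = 0.94 over both). With background subtracted from each, the sums were 4.96, 1.36 and 4.89 FPKM in cKO females against 10.8, 9.30 and 7.67 FPKM in control females, which stood apart, while males overlapped (exact permutation p = 0.05 over both). Other genes are annotated inside Atrx, and whether their signal came from its introns was not tested. Gm23656, a small nuclear RNA gene on the opposite strand, had 2.08, 7.61 and 8.81 FPKM in cKO females, against 0.809, 0.285 and 1.20 FPKM in control females. It had 0.0799 to 0.498 FPKM in cKO males, against 0.0950 to 0.241 FPKM in control males. Its order in cKO females was that of the background. Gm14853, a pseudogene on the strand of Atrx, and Gm26020, on the opposite strand, overlapped between groups in both sexes. The strand setting of the quantification is not stated in the sources.

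The other genes around Atrx showed no call. Of 30 genes within 500 kb, 14 were tested, 8 of them protein coding. limma called 0 in females (7 at an unadjusted p under 0.05, as were 12556 of all 24705 genes). In males it called 0 (0 at that p, against 458 of all genes). The median log2 change of the 14 was 0.63 in females and 0.04 in males, against 0.63 and 0.13 over all genes. Without cKO female 1, 12 were called in at least 1 sex, and without control female 3, 1 was, in the fits that called 70.1% and 22.6% of all genes in females. Fgf16, a growth factor gene that is the nearest coding gene past the 3′ end of Atrx, averaged 2.55 ± 0.655 FPKM in cKO females and 1.43 ± 0.310 in control females, and 1.27 ± 0.249 in cKO males and 0.736 ± 0.127 in control males. Its groups stood apart in both sexes, as 1.68% of genes did in the higher direction. The change was not called (limma, log2 0.82, adjusted p = 0.0654 in females, and 0.51, adjusted p = 0.999 in males). Fgf16 had 1.80, 2.80 and 3.04 FPKM in cKO females 1 to 3, where the background was 0.326, 2.03 and 2.30 FPKM. The part of background in this change was not tested. Cox7b, a subunit of cytochrome c oxidase, averaged 178 ± 58.0 FPKM in cKO females and 246 ± 22.6 in control females, and 419 ± 54.2 in cKO males and 437 ± 40.2 in control males. It was called between the sexes, higher in control males than in control females by 0.86 on the log2 scale (adjusted p = 0.0098). Such a call was made for 4.13% of genes. Magt1, Atp7a (a copper transporter), Taf9b, Pgk1 (a glycolytic kinase), Tlr13 (an RNA receptor of innate immunity) and Cypt2 had log2 changes of −0.23 to 1.31 in females and −0.11 to 0.28 in males.

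None of the 24 tested genes of ATRX partners and heterochromatin factors was called with Atrx reduced. limma called 0 in females (6 at an unadjusted p under 0.05, against 12556 of all 24705 genes). In males it called 0 (0 at that p, against 458 of all genes). The median log2 change of the 24 was 0.23 in females and 0.02 in males. In those fits, without cKO female 1 and without control female 3, 12 and 2 of them were called in at least 1 sex, against 70.1% and 22.6% of all genes in females. Daxx, the H3.3 chaperone that works with ATRX, averaged 5.41 ± 0.810 FPKM in cKO females and 6.36 ± 0.973 in control females, and 5.25 ± 0.649 in cKO males and 5.25 ± 0.106 in control males. Of the H3.3 genes, H3f3a had 110.8, 22.1 and 26.3 FPKM in cKO females, which spread on both sides of the 42.9, 61.4 and 72.2 FPKM in control females (log2 −0.31, SE 0.453), and 0.31 in males. H3f3b had log2 changes of −0.29 in females (SE 0.122) and 0.01 in males. Cbx5, which encodes HP1 alpha, had log2 changes of 0.01 in females and 0.04 in males. Trim28, a corepressor at heterochromatin, was the 1 member of the 24 called between the sexes, as were 4.13% of all genes. It was lower by 0.51 on the log2 scale in control males than in control females (limma, adjusted p = 0.0348).

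Among 6216 genes of at least 10 FPKM, those whose log2 levels went most alike with the Atrx sum over the 12 libraries included Anp32a (Pearson r 0.860, Spearman rho 0.909), Wdr26 (0.848, 0.853), Fam155a (0.836, 0.846) and Atp6v0c-ps2 (0.829, 0.846). These are descriptions over libraries that share depth, background and group. Fam155a, which encodes a subunit of the NALCN sodium leak channel, was lower in each cKO than in each control library in both sexes. So were 0.498% of genes. The Atrx sum stood apart in the same way, so choosing genes by likeness to it partly fixes this order. Fam155a averaged 20.7 ± 0.374 FPKM in cKO females and 33.5 ± 1.73 in control females, and 15.5 ± 2.60 in cKO males and 24.9 ± 0.969 in control males.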

How the data were processed

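Per the submitters' processing notes, the authors used HISAT2 2.0.4, StringTie and the build GRCm38.p6. The annotation release, the strand setting and trimming are not stated there. The deposited FPKM per transcript are the authors' normalized estimates. The deposited coverage, a signal per base of a transcript, was checked to be a constant multiple of FPKM within each table. No table holds read counts, so no count test was run; depth was taken from the ratio of both columns. FPKM was summed to 54532 genes.

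Median-of-ratios factors for the libraries came from the 6168 genes that averaged 10 FPKM or more. limma 3.58.1 (trend, robust; R 4.3.3) fitted 4 group means to log2(scaled FPKM + 0.5), so fold changes of low transcripts are understated. Genes averaging 1 FPKM or more and transcripts averaging 0.5 or more were kept, with two-sided tests, Benjamini-Hochberg adjustment over all of them and a threshold of 0.05. Single values were tested by exact permutation of libraries within sex. A short transcript spans less than 50% of the gene. Estimated exon depth is the sum over transcripts containing the exon. The fits were tested on simulated data. Background was subtracted once per transcript, gene or sum, and in an added alternative from each transcript before summing, with values below 0 set to 0.

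All Atrx transcripts were accounted for, those with a mean of at least 1 FPKM or a call in sentences of their own; protein-coding neighbours that were tested, called partner genes with Daxx, H3f3a, H3f3b and Cbx5, and genes among the 5 most alike were named; some genes the rule selects are not reported here. The members, lists and tests were chosen with earlier results of these data known. Fndc3c1 and Fnd3c2, neighbours below the filter, were not tested. The choice of no library pairing, the alternatives and their effects are given with the limits. No pair of libraries held identical values.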

Additional observations from a re-analysis of the deposited data

How the results depend on the processing

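Each estimate rests on 3 libraries a group and on a model that shares reads among overlapping transcripts, so single short transcripts are weakly fixed, and cKO females combine low depth with high background. The alternatives were another or no scaling, pseudocount 0.1, no filter, background subtraction, fits on the compared groups alone, a replicate block, a length cut of 80%, only transcripts of at least 1 FPKM, and leaving out each library. Depth over joined exons, background subtracted from each transcript before summing, and leaving out both cKO females of highest background were chosen after seeing the data. Of 388 alternative values, 330 kept their direction and side of the threshold. The male gene sum and the male minus female difference of the gene sum, neither called, did so under each of these that was run.

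The sources state no pairing of libraries by replicate number. Same-numbered cKO and control libraries correlated at −0.0881, −0.159 and −0.0152 in females and 0.105, −0.098 and 0.151 in males. Of the cKO libraries, cKO males 1 and 3 correlated best with the control of their own number, and the others did not. With 3 libraries a group, these correlations cannot decide whether libraries were paired. With the replicate block the gene sum in females was −0.55 (adjusted p = 0.0473, called), 0 Atrx transcripts were called in females and 0 on the mean of both sexes, and 1 neighbour and 3 partner genes were called, in a fit that called 22.1% of all genes in females.

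With no filter the gene sum in females was −0.55 and called (adjusted p = 0.0445), with 10 neighbours and 3 partner genes called, as were 37.6% of all genes in females. Over joined exons it was −0.81 in females and −0.64 on the mean, and −1.17 and −0.83 with background subtracted, all called. Scaling over all genes above 0, which puts the median of all genes at −0.49 in females, called 0 Atrx transcripts in females and on the mean, gave −0.73 for short 5′ and −0.71 for short 3′ transcripts (exact permutation p = 0.02 each), and turned control males against control females to 0.19. Female transcript calls were 2 with background subtracted, in a fit that called 0.331% of all transcripts, and 0 with the 2 groups alone. Without both cKO females of highest background the short 3′ to full-length ratio was 0.35 and control males against control females −0.43. With background subtracted from each transcript the short 5′ sum was −0.82 and the short 3′ sum −1.20 (exact permutation p = 0.02 each), the short 5′ ratio to full length 0.22 (p = 0.135), the short 3′ ratio −0.17 (p = 0.77) and the 3′ to 5′ ratio of estimated depth −0.0567 (exact permutation p = 0.5). Background subtracted once from the estimated depth of each exon left the 3′ to 5′ ratio at −0.18 (exact permutation p = 0.005). Causes were not tested.

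Leaving out 1 library at a time, the gene sum ran from −0.67 to −0.37 in females, −0.40 to −0.28 in males and −0.50 to −0.35 on the mean, the difference of males and females from 0.04 to 0.34, and control males against control females from −0.48 to −0.36. Transcript calls ran from 0 to 8 in females and 1 to 8 on the mean, neighbours and partner genes called from 0 to 12 each, the highest without cKO female 1, when 70.1% of all genes were called in females. The short 3′ sum ran from −0.28 to 0.03 (0.0195 without cKO female 1, 0.0256 without control female 3), and its ratio to the full-length form from 0.58 to 0.95.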
